A study of Rattus norvegicus with 21 samples.

Results

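Livers of early weaned Sprague Dawley rats that were given 1.5% leucine in their drinking water were compared with control livers of the same strain, both at d211. Bulk RNA-seq of 3 livers labelled early weaning with leucine supplement and 3 livers labelled control entered the comparison, 6 of the 21 samples of the series, chosen by those labels alone. The study asked how early weaning acts on the liver of the adult rat and whether leucine modifies it, and the same table holds 3 livers of early weaned rats without leucine at d211. Those livers entered the model to estimate the spread and are given beside a gene where useful. The leucine and the early weaned livers share the same 3 controls, so a likeness between their differences from control is not independent evidence. No group received leucine without early weaning, so the effects of weaning and of leucine cannot be told apart in this comparison. The labels give neither sex nor diet, and they do not say that each sample is a separate animal, so the p-values reflect the spread among these libraries, which may be technical.

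Weaning moves a rat from milk, which is rich in fat, to a diet rich in carbohydrate, and the liver then makes more of its own fatty acids and burns fewer. The transcription factors SREBP and ChREBP drive genes of lipid synthesis, and PPARα drives genes of fatty acid oxidation. Leucine is a branched-chain amino acid that is a fuel, a building block of protein and a signal to the growth kinase complex mTORC1, and most of its first degradation step takes place outside the liver.

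Of 32623 genes in the table, 15019 had enough counts to be tested. Only 2 passed a Benjamini-Hochberg adjusted p of 0.05 by edgeR's quasi-likelihood test, 0.0133% of the tested genes, 1 higher (0.00666%) and 1 lower (0.00666%), and 1617 (10.8%) had an unadjusted p under 0.05, 775 of them higher and 842 lower. The same model called 54 genes (0.36%) between leucine and early weaned livers and 108 (0.719%) between early weaned livers and control. The median change of all tested genes was 0.01 on the log2 scale, with quartiles at −0.22 and 0.30, and 51.5% of the genes lay above 0. FPKM, the authors' level per length of transcript and depth of library, did not overlap between the 3 leucine and 3 control livers for 1493 genes higher (9.94%) and 959 lower (6.39%), 16.3% in all. On edgeR's normalized scale that split was 1240 higher and 1269 lower. DESeq2 called 200 genes on the same counts, 111 higher and 89 lower. Of the genes described below these included Hspa8, Fgf21, Slc38a2, Bhmt, Oat, Acacb, Thrsp, Pnpla3, Acaca and Scd. The adjusted p by DESeq2 was 3.5e-06 for Hspa8 and 0.046 for Scd. Fasn, Srebf1, Ivd, Bckdha and Bcat2 were among those that DESeq2 did not call. Every gene below other than Spsb2 and AC128792 missed the edgeR threshold in the comparison with control, and its values are given as a description.

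Total counts ran from 52054644 to 75118153 per library, and 10250 to 10833 genes reached an FPKM of 1. The samples were liver by their defining transcripts. The summed FPKM of 12 hepatocyte markers was 74569 to 81580 in controls and 77532 to 86589 with leucine, and albumin (Alb) alone gave 39997 to 48919 over both groups. Summed Kupffer cell markers lay between 144 and 382 in controls and between 284 and 418 with leucine, and endothelial markers between 49.2 and 126 and between 102 and 126, with control replicate 1 lowest for both. Red blood cell markers gave 695 to 1779 in controls and 1780 to 3194 with leucine, and did not overlap. In bulk tissue, fewer cells of a type and less RNA per cell cannot be told apart, and the part of these markers in any result below was not tested.

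**Figure D1:**
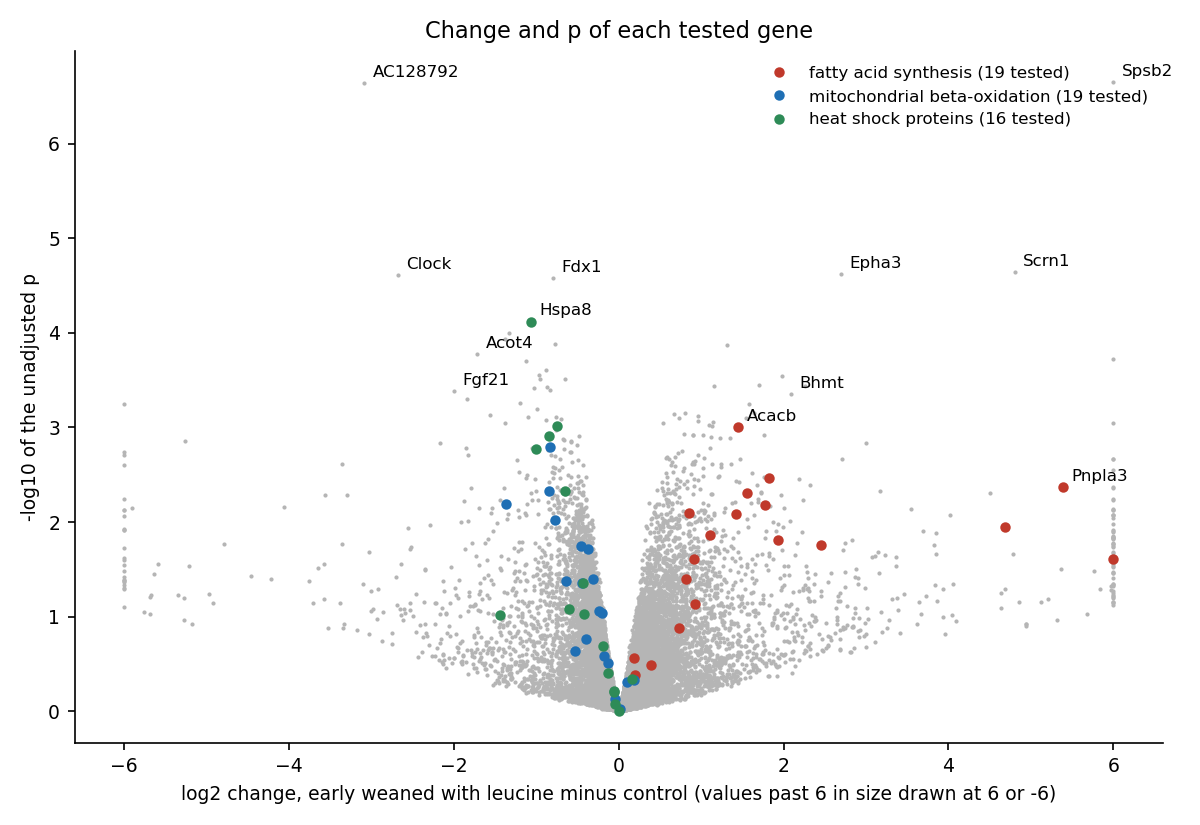
Change and unadjusted p of each of the 15019 tested genes. The x axis is the log2 change, early weaned with leucine minus control, and the y axis is −log10 of the unadjusted p; grey points are all genes and coloured points are the tested members of 3 gene lists. Fatty acid synthesis genes all lie to the right of 0, and 16 of the 19 mitochondrial beta-oxidation genes and 14 of the 16 heat shock genes lie to the left.

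Transcripts at the entry for Spsb2 were higher with leucine. Spsb2 is a SPRY domain and SOCS box protein that hands the inducible nitric oxide synthase to a ubiquitin ligase (ENSRNOG00000047113, chromosome 9, 20217278 to 20219209, minus strand, on the table's unnamed rat build). Its FPKM was 0, 0 and 0 in controls and 2.91, 2.29 and 4.37 with leucine. The groups did not overlap (adjusted p = 0.00173 by edgeR, n = 3 per group). Against an assumed floor of 3 fragments, set at 12 counts per library, the level was at least 17.7-fold higher with leucine. The early weaned livers without leucine stood at 4.07, 3.91 and 4.80 FPKM, and leucine and early weaned livers differed by −0.25 on the log2 scale (adjusted p = 0.832).

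The call for Spsb2 depends on how its reads are counted. A second entry, LOC100911548 on chromosome 4 at 157326727 to 157328379 (ENSRNOG00000015125, plus strand), is described in the table as Spsb2-like. It held 273, 0 and 403 counts in controls and 264, 182 and 376 with leucine, and did not pass the test (0.27, SE 1.08, adjusted p = 0.957). In the 6 libraries where Spsb2 was above 0, its count was between 86.4% and 93.3% of the count at LOC100911548. Summed over both entries the counts were 273, 0 and 403 in controls and 492, 344 and 714 with leucine, so the groups overlapped. The summed entry differed by 1.18 (SE 1.05, adjusted p = 0.734), which ends the call. The sum was made after the values were seen. Whether the 2 entries share reads was not tested. The other 8 tested members of the SPRY and SOCS box list were all lower, and none passed.

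AC128792 fell. This is an entry of 106 bases listed as a microRNA gene (ENSRNOG00000036301, chromosome 1, 101448331 to 101448436, minus strand), with no mature product named. It stood at 551, 798 and 907 FPKM in controls and at 110.5, 83.6 and 82.5 with leucine. The groups did not overlap, and the log2 change was −3.09 with an SE of 0.239 (adjusted p = 0.00173). Early weaned livers without leucine had 449, 391 and 588 FPKM, and AC128792 was also lower with leucine than in those (−2.20, adjusted p = 0.013). A second entry of the same symbol, a pseudogene (ENSRNOG00000057558), did not pass (−0.45, SE 0.174, adjusted p = 0.43). It had 1019, 1358 and 1103 FPKM in controls and 912, 726 and 1026 with leucine, and overlapped. AC128792 elsewhere means the microRNA entry.

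Of the 106 bases of AC128792, 91 lie inside LOC100360087 on the same strand, a gene described as ferritin light chain 1-like, an iron storage protein subunit. LOC100360087 had 1967, 2767 and 2700.1 FPKM in controls and 1734, 1451 and 2060.1 with leucine. Its groups overlapped and its difference of −0.56 (SE 0.192) did not pass (adjusted p = 0.396). The difference was thus −3.09 at the short entry and −0.56 over the gene that contains most of it, and the gap between them was not tested. Reads of the overlapping genes, and of other ferritin light chain copies, could not be separated.

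**Figure D2:**
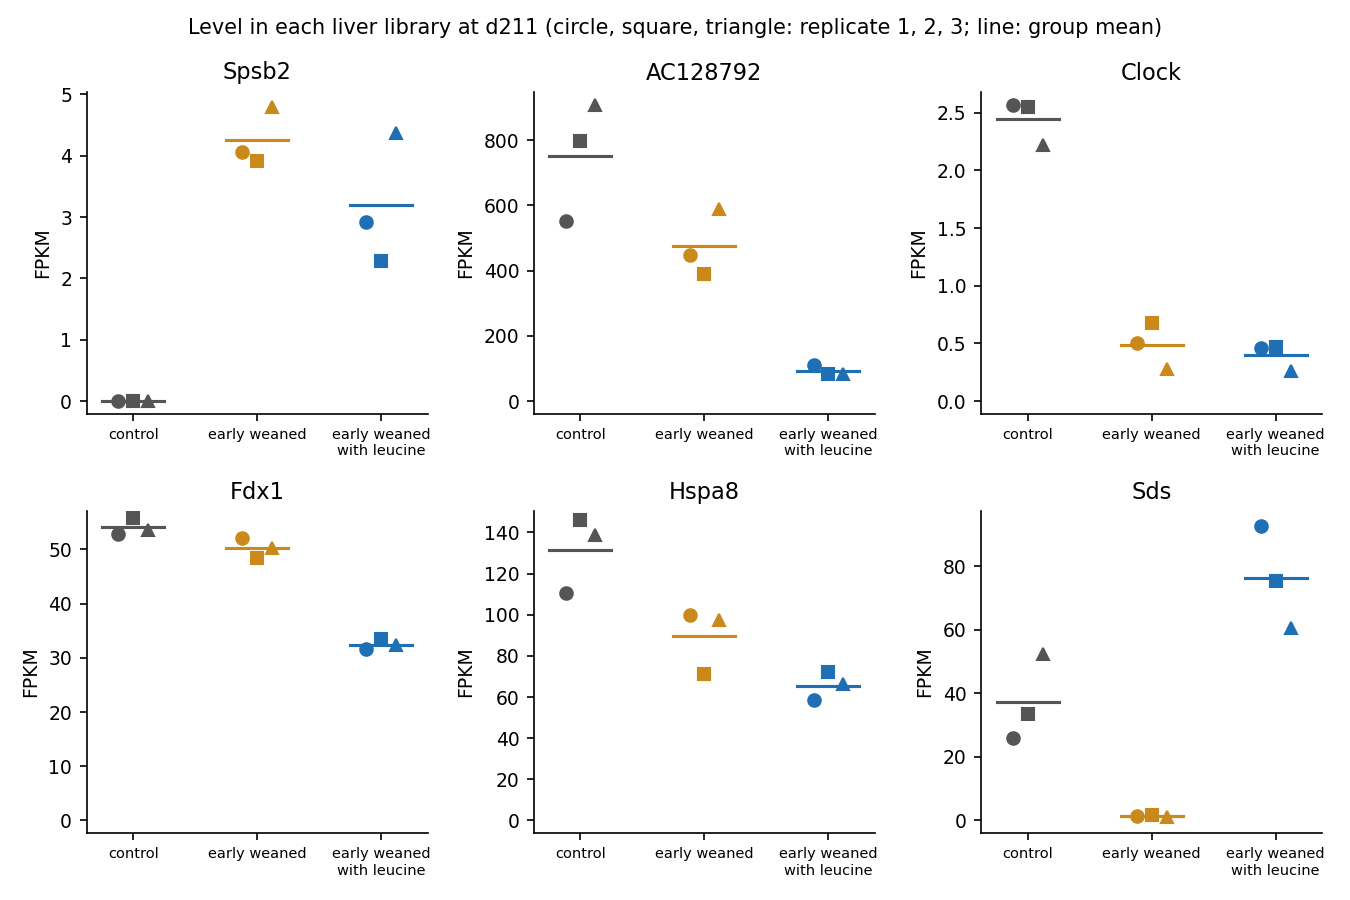
FPKM of 6 genes in each of the 9 livers at d211; each point is a library, with replicates 1, 2 and 3 as circle, square and triangle, and the line is the group mean. Spsb2 is at 0 in the 3 controls, AC128792 and Fdx1 are lowest with leucine, Clock is low in both early weaned groups, and Sds is near 1 FPKM only in early weaned livers without leucine.

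A group of 4 genes came next, all at an adjusted p of 0.066. Clock, the transcription factor at the centre of the circadian oscillator, stood at 2.56, 2.55 and 2.22 FPKM in controls and at 0.459, 0.469 and 0.265 with leucine. The groups were well apart, with a difference of −2.68 on the log2 scale (SE 0.353). Clock was as low in the early weaned livers without leucine, at 0.506, 0.673 and 0.282 FPKM, where the difference from control passed (−2.52, adjusted p = 0.0354). Of 20 other settings of the analysis, 8 put the leucine difference of Clock past the threshold.

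Fdx1, ferredoxin 1, carries electrons to the mitochondrial cytochromes P450 of steroid, bile acid and vitamin D metabolism. It stood at 52.8, 55.8 and 53.7 FPKM in controls and at 31.6, 33.4 and 32.3 with leucine. Each group was tight and they did not overlap (−0.79, SE 0.106, adjusted p = 0.066). Early weaned livers without leucine lay between, at 52.0, 48.4 and 50.3 FPKM, and did not overlap either group.

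The other 2 genes were higher with leucine. Scrn1, secernin 1, was at 0.0768, 0.0291 and 0.0211 FPKM in controls and at 1.66, 0.660 and 1.41 with leucine (4.81, SE 0.628). Epha3, an ephrin receptor tyrosine kinase, was at 0.319, 0.181 and 0.151 FPKM in controls and at 1.12, 2.12 and 1.14 with leucine (2.70, SE 0.355). Both were near the limit of detection in controls, and early weaned livers without leucine were higher than controls for both, with an adjusted p of 0.0405 for Scrn1 and 0.0446 for Epha3.

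Among the other genes of smallest p without overlap, Bhmt, which remethylates homocysteine from betaine, had 996, 573 and 536 FPKM in controls and 2215, 4999 and 2059 with leucine (2.09, SE 0.399, adjusted p = 0.247). Every leucine liver was above every control for Bhmt. Dnase2b, an acid DNase, stood at 2.92, 4.28 and 4.38 FPKM in controls and at 8.49, 22.7 and 16.9 with leucine (1.99, adjusted p = 0.237). Irs3, a rodent insulin receptor substrate, stood at 1.65, 1.19 and 0.863 FPKM in controls and at 6.2, 9.17 and 3.08 with leucine (2.26, adjusted p = 0.237). In the other direction Acot4, a peroxisomal thioesterase that acts on succinyl-CoA, was at 13.0, 15.1 and 9.97 FPKM in controls and at 3.76, 3.65 and 4.63 with leucine (−1.72, SE 0.288, adjusted p = 0.21).

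Genes of fatty acid synthesis were higher with leucine throughout. Of 22 listed genes 19 were tested, and all 19 were higher, against 51.5% of all tested genes. In 8 of the 19 (42.1%) the groups did not overlap, against 16.3% of all genes, and the median log2 change was 1.42 against 0.01. None passed the adjusted threshold by edgeR, and 14 had an unadjusted p under 0.05. The DESeq2 result was kept for only some of these genes, and not for Acly, Acss2 or Me1. Among those kept, DESeq2 called Acacb, Thrsp, Pnpla3, Acaca and Scd, and did not call Fasn or Srebf1. The size rested in part on leucine replicate 2: without it the median was 0.82, and without leucine replicate 3 it was 1.59. Relative to the control mean, the list's median level was 0.88, 2.01 and 0.83 in the leucine livers and 0.42, −0.08 and −0.38 in the controls on the log2 scale. Early weaned livers without leucine also stood above these controls, with a median change of 1.09, and the median of leucine minus early weaned was 0.29.

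The enzymes of the pathway can be followed in order. Acly, which splits citrate to acetyl-CoA in the cytosol, had 65.2, 23.0 and 17.5 FPKM in controls and 84.1, 284 and 46.5 with leucine (1.93, adjusted p = 0.393). Acss2, which makes acetyl-CoA from acetate, had 18.7, 8.58 and 7.08 FPKM in controls and 22.6, 48.9 and 23.4 with leucine (1.42, adjusted p = 0.369). Control replicate 1 was the highest control for both, and its Acly level lay above that of leucine replicate 3. Acaca, the acetyl-CoA carboxylase of synthesis, had 4.59, 1.71 and 1.06 FPKM in controls and 7.52, 13.8 and 4.57 with leucine (1.77, adjusted p = 0.369). Acacb, the carboxylase at the mitochondrial surface whose product inhibits Cpt1, had 9.64, 6.32 and 5.52 FPKM in controls and 18.9, 29.6 and 12.5 with leucine (1.45, SE 0.311, adjusted p = 0.285). Early weaned livers had 36.2, 22.5 and 25.5 FPKM of Acacb. The control and leucine groups of Acacb did not overlap, while those of Acaca met at 4.59 and 4.57.

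Fasn, the fatty acid synthase, had 29.2, 5.14 and 5.28 FPKM in controls and 45.4, 159 and 17.4 with leucine (2.45, SE 0.856, adjusted p = 0.406). Scd, the stearoyl-CoA desaturase, had 16.5, 0.713 and 0.764 FPKM in controls and 114, 338 and 15.2 with leucine (4.68, SE 1.49, adjusted p = 0.374). In both genes control replicate 1 exceeded leucine replicate 3, and leucine replicate 2 was the highest library. The early weaned livers had 69.9, 42.9 and 87.9 FPKM of Fasn and 299, 48.6 and 102 of Scd, within the leucine range for both. Me1, the malic enzyme that supplies NADPH for synthesis, had 5.44, 5.38 and 5.28 FPKM in controls and 6.10, 19.7 and 10.3 with leucine (1.10, adjusted p = 0.389).

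Thrsp, the thyroid hormone responsive protein of lipogenic tissue, and Pnpla3, a lipid droplet acyltransferase and lipase induced by carbohydrate feeding, did not overlap between groups. Thrsp had 553, 309 and 376 FPKM in controls and 1342, 2429 and 779 with leucine (1.83, SE 0.472, adjusted p = 0.357). Early weaned livers without leucine had 351, 207 and 690.1 FPKM of Thrsp, all below every leucine liver, a difference that did not pass (2.04, adjusted p = 0.0867). Pnpla3 had 1.02, 0.285 and 0.186 FPKM in controls, 53.6, 7.36 and 38.6 in early weaned livers and 4.55, 58.3 and 1.23 with leucine (5.39 against control, SE 1.45, adjusted p = 0.357). The leucine livers spanned a wide range for Pnpla3, and its lowest leucine value lay just above its highest control value. Srebf1, which encodes SREBP-1, had 95.8, 30.6 and 36.5 FPKM in controls and 90.4, 162 and 64.9 with leucine, and overlapped (0.92, adjusted p = 0.502).

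**Figure D3:**
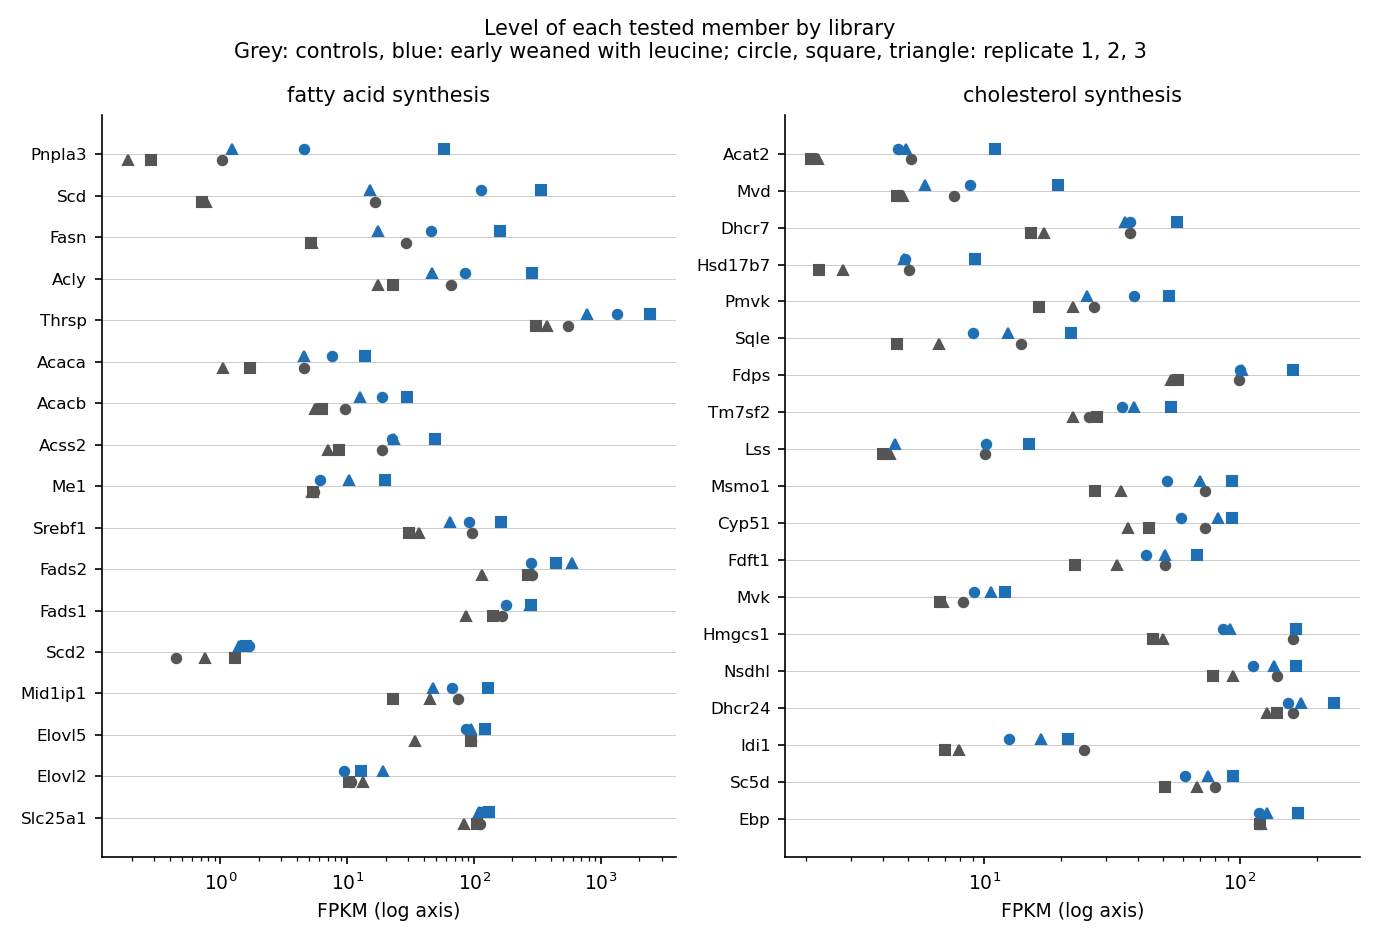
FPKM of the tested fatty acid and cholesterol synthesis genes in each control (grey) and leucine (blue) liver on a log axis, with replicates 1, 2 and 3 as circle, square and triangle; Elovl6, at 0 in 5 of these 6 libraries, and 1 other member of each list are left out. Blue points lie to the right of grey for most genes, leucine replicate 2 (square) is often the highest and control replicate 1 (grey circle) is often the highest control.

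Cholesterol synthesis genes were also all higher, but by less. All 20 listed genes were tested and all 20 were above 0, the groups did not overlap in 3 (15%, near the 16.3% of all genes), and the median was 0.60. It was 0.35 without leucine replicate 2 and 0.98 without control replicate 1. Early weaned livers without leucine stood at a median of 1.28 above the same controls. Fdps, which makes farnesyl diphosphate, had 99.7, 57.1 and 54.0 FPKM in controls and 100.3, 162 and 102 with leucine (0.74, adjusted p = 0.419). The groups of Fdps were separated by less than 1 FPKM, between control replicate 1 and leucine replicate 1. Tm7sf2, a sterol reductase, was the clearest, with 25.7, 27.5 and 22.2 FPKM in controls and 34.6, 53.7 and 38.5 with leucine (0.69, SE 0.183, adjusted p = 0.357).

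Among genes of sterol and lipoprotein handling, Npc1, which moves cholesterol out of lysosomes, had 14.4, 14.8 and 11.3 FPKM in controls and 22.0, 23.2 and 27.9 with leucine (0.80, SE 0.175, adjusted p = 0.309). Apoa5, an apolipoprotein that promotes clearance of plasma triglyceride, had 628, 660.2 and 637 FPKM in controls and 449, 342 and 337 with leucine (−0.83, SE 0.156, adjusted p = 0.239). Neither overlapped. Angptl4, an inhibitor of lipoprotein lipase, had 59.5, 38.3 and 20.8 FPKM in controls and 19.2, 15.6 and 10.5 with leucine (−1.43, adjusted p = 0.367). Cyp7a1, which catalyses the controlling step from cholesterol to bile acids, had 37.9, 21.0 and 17.7 FPKM in controls and 24.9, 106 and 10.8 with leucine (0.83, SE 0.692, adjusted p = 0.707). Its sign rested on leucine replicate 2, without which it was −0.55. The lists of sterol uptake genes (17 tested), efflux and lipoprotein genes (22 tested) and bile acid genes (22 tested) had medians of 0.07, −0.16 and −0.02, in that order. Without control replicate 1 these medians were −0.02, −0.27 and 0.07, and the median of the efflux list was −0.05 without control replicate 2.

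In the list of triglyceride synthesis and lipid droplet genes, 21 were tested, 8 were higher, and the median was −0.24. Control and leucine livers did not overlap for 10 (47.6%), against 16.3% of all genes. The members without overlap went both ways, 4 higher and 6 lower. G0s2, an inhibitor of the lipase Atgl, had 366, 182 and 225 FPKM in controls and 104, 103 and 98.7 with leucine (−1.38, SE 0.291, adjusted p = 0.282). Plin3, a lipid droplet coat protein, had 7.53, 7.60 and 5.57 FPKM in controls and 14.6, 20.3 and 12.3 with leucine (1.13, adjusted p = 0.357). Lpin2, a phosphatidate phosphatase, had 4.08, 7.14 and 5.07 FPKM in controls and 10.2, 10.6 and 14.3 with leucine (1.04, adjusted p = 0.328).

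Oxidation genes were mostly lower with leucine. Of 19 tested genes of mitochondrial beta-oxidation, 16 were lower and 3 higher. Livers did not overlap for 9 (47.4%), 8 of those lower, against 16.3% of all genes. The median change was −0.38. It was −0.42 without leucine replicate 3 and −0.23 without leucine replicate 2. Early weaned livers without leucine also stood below these controls, with a median change of −0.58. The median of leucine minus early weaned was 0.18. Acaa2, the thiolase of the last step, had 469, 530.3 and 494 FPKM in controls and 336, 211 and 324 with leucine (−0.84, SE 0.192, adjusted p = 0.328). Eci1, which isomerizes unsaturated acyl-CoA, had 117, 186 and 168 FPKM in controls and 34.4, 45 and 111 with leucine (−1.37, adjusted p = 0.367). Cpt2, the inner carnitine palmitoyltransferase, had 40.0, 43.9 and 42.0 FPKM in controls and 19.3, 21.5 and 35.7 with leucine (−0.77, adjusted p = 0.37).

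Leucine replicate 3 stood apart from the other leucine livers in these genes. Cpt1a, the outer carnitine palmitoyltransferase that controls entry of fatty acids, had 84.8, 76.6 and 87.3 FPKM in controls and 33.8, 33.0 and 112 with leucine. Leucine replicates 1 and 2 were below every control and leucine replicate 3 above every control, so that the difference was −0.53 (SE 0.414, adjusted p = 0.686). Without leucine replicate 3 it was −1.37 and passed (adjusted p = 0.0356, with 2 leucine libraries left and the spread shared over the other groups). Over its 20 other settings the adjusted p of Cpt1a ran from 0.0356 to 0.945. Vnn1, a pantetheinase induced by PPARα, showed the same order, with 6.37, 6.69 and 6.32 FPKM in controls and 2.20, 2.04 and 8.54 with leucine (−0.65, adjusted p = 0.657).

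In the list of PPARα targets, 23 were tested, 20 were lower and 3 higher, and the median was −0.53. Livers did not overlap for 9 (39.1%), all lower, against 16.3% of all genes. The median ran from −0.67 without leucine replicate 3 to −0.31 without leucine replicate 2. Against the same controls, early weaned livers without leucine had a median of −0.64 for this list. Fgf21, a fasting hormone of the liver, had 41.2, 16.6 and 36.0 FPKM in controls and 6.45, 6.26 and 11.4 with leucine (−2.00, SE 0.377, adjusted p = 0.239). Cyp4a2, a fatty acid omega-hydroxylase, had 209.9, 365 and 269 FPKM in controls and 35.8, 74.6 and 133 with leucine (−1.86, adjusted p = 0.328), although reads may be shared among Cyp4a copies. Ppara itself had 6.70, 6.67 and 2.33 FPKM in controls and 6.09, 5.15 and 6.32 with leucine (0.10, adjusted p = 0.943). The transcript of the receptor thus lay inside the control range while its listed targets were mostly lower. In peroxisomal and omega oxidation 15 of 17 were lower (median −0.31, and −0.49 without leucine replicate 3). The median of early weaned livers without leucine was −0.26 against control for that list. The 11 genes of ketogenesis had a median of −0.11, or −0.21 without control replicate 3. Only 1 of them (9.09%) was without overlap, below the 16.3% of all genes. The list of PPARα targets shares members with the other lists, so they are not independent. Acsl1 is also a beta-oxidation gene, Cyp4a2 is also in the omega oxidation list, and Fgf21 is also in the ketogenesis and ATF4 lists.

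**Figure D4:**
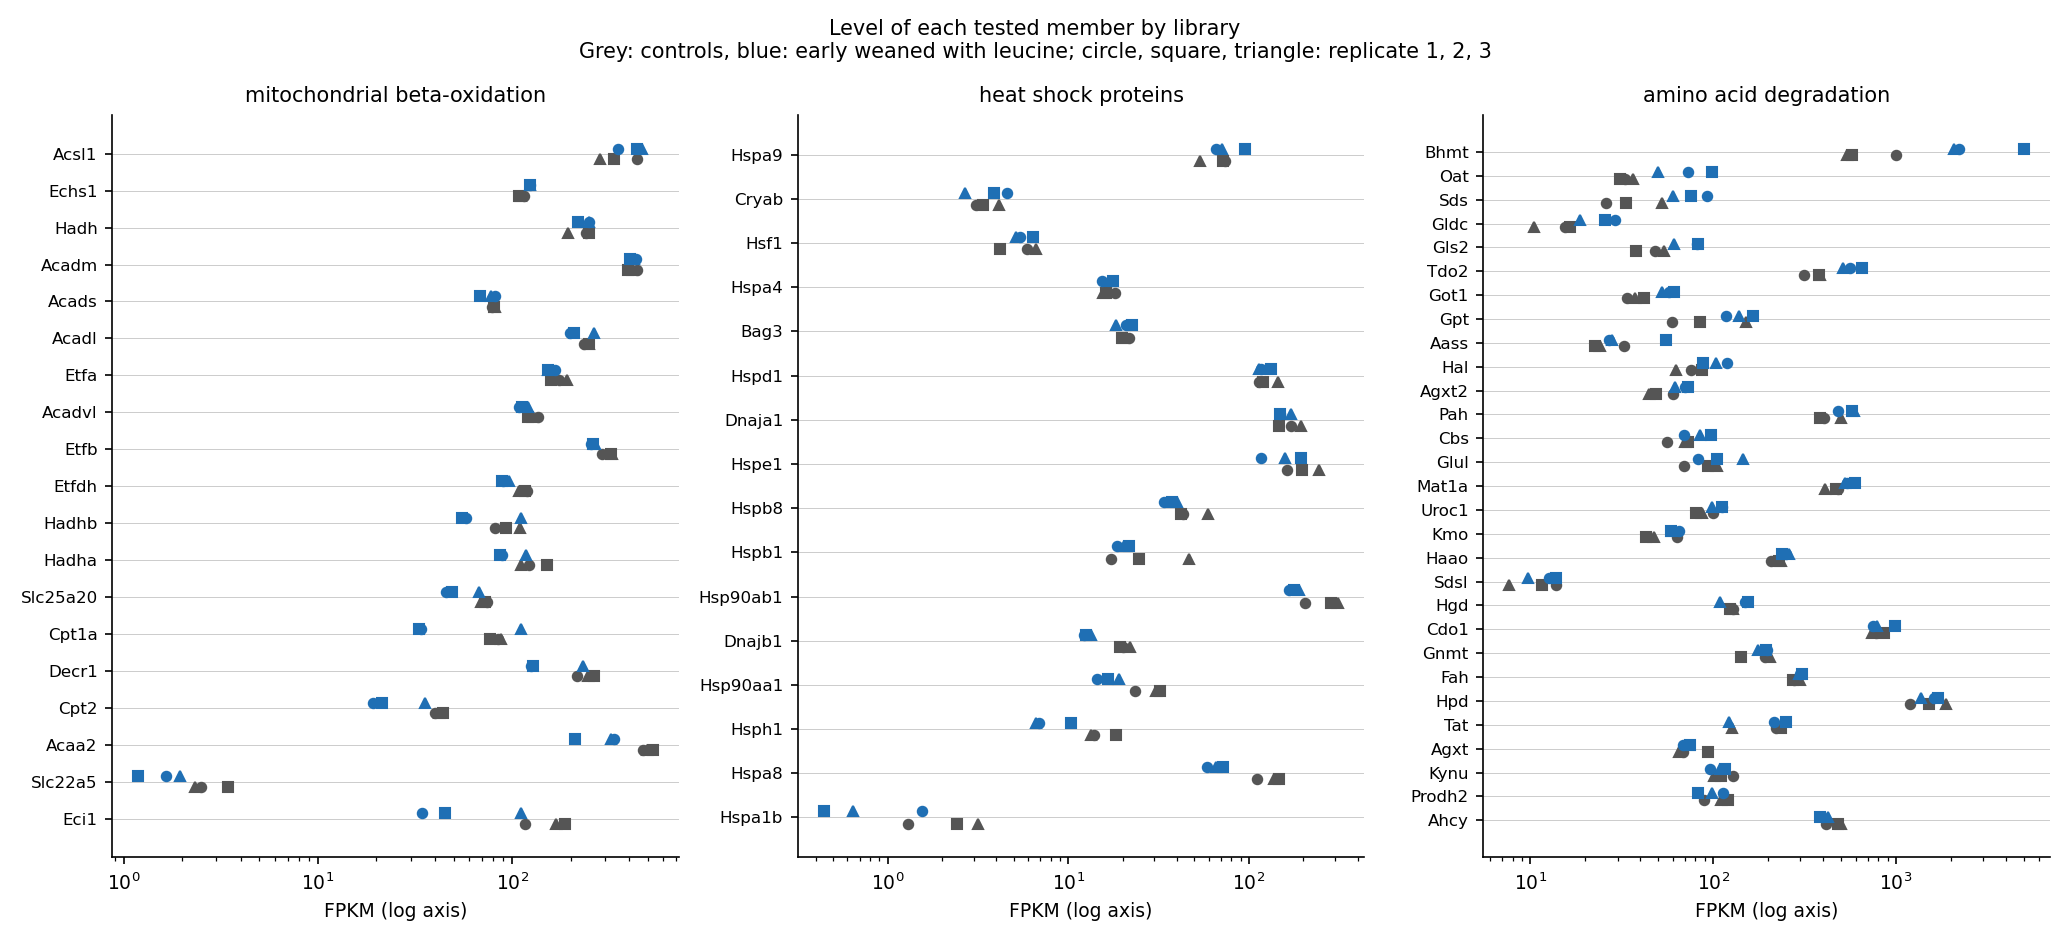
FPKM of the tested members of the mitochondrial beta-oxidation, heat shock protein and amino acid degradation lists in each control (grey) and leucine (blue) liver on a log axis, with replicates 1, 2 and 3 as circle, square and triangle. Blue points lie mostly left of grey in the first 2 panels and mostly right in the last, and leucine replicate 3 (blue triangle) of Cpt1a lies to the right of the controls.

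Leucine degradation showed little difference. Of 24 tested genes of branched-chain amino acid catabolism, 14 were higher and 10 lower, and the median was 0.03 (0.09 without control replicate 1). Only 3 (12.5%) did not overlap, below the 16.3% of all genes, and none had an unadjusted p under 0.05 by edgeR. By DESeq2 and limma none of the genes named in this paragraph passed either. Ivd, the isovaleryl-CoA dehydrogenase of the leucine branch, had 53.5, 56.0 and 60.3 FPKM in controls and 66.0, 72.0 and 67.7 with leucine (0.22, SE 0.14, adjusted p = 0.6). Bckdha, a subunit of the dehydrogenase complex that commits all 3 branched-chain amino acids, had 106, 110.2 and 111 FPKM in controls and 118, 97.2 and 101 with leucine (−0.11, SE 0.117, adjusted p = 0.793). Bcat2, the transaminase of the first step, was scarce, at 1.47, 2.00 and 2.87 FPKM in controls and 1.98, 2.73 and 0.972 with leucine.

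Sensing genes were split. Among 33 tested genes of leucine sensing and mTORC1, 16 were higher and 17 lower, and the median was −0.02 (−0.07 without control replicate 3). Control and leucine livers did not overlap for 10 (30.3%), 6 of them higher, against 16.3% of all genes. Mtor, the kinase, had 3.27, 2.89 and 2.61 FPKM in controls and 3.45, 4.19 and 3.92 with leucine (0.35, SE 0.128, adjusted p = 0.419). Slc38a9, the lysosomal arginine sensor, had 1.55, 1.45 and 1.14 FPKM in controls and 2.06, 2.08 and 1.90 with leucine (0.49, adjusted p = 0.389). Slc3a2, the heavy chain that pairs with Slc7a5 to carry leucine into cells, had 37.4, 54.2 and 42.5 FPKM in controls and 24.5, 27.9 and 35.2 with leucine (−0.68, SE 0.192, adjusted p = 0.367). Sesn2, a cytosolic leucine sensor, overlapped, with 7.30, 6.53 and 2.75 FPKM in controls and 6.32, 4.04 and 2.36 with leucine.

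The response to amino acid shortage runs through the transcription factor ATF4. Of 19 tested genes of that list 14 were lower and 5 higher, 3 (15.8%, near the 16.3% of all genes) did not overlap, and the median was −0.85. Without control replicate 2 the median was −0.39, and among the settings that did not leave out a library it reached −0.31. Relative to the control mean, the list's median level was 0.07, 0.28 and −0.19 in the controls on the log2 scale. It was −0.31 in leucine replicate 1 and −0.21 in leucine replicate 3, and clearly lower only in leucine replicate 2. Leucine replicate 3 thus lay close to control replicate 3, and the size of the list median is uncertain. Atf4 had 86.5, 57.9 and 85.2 FPKM in controls and 64.2, 69.5 and 56.7 with leucine (−0.32, SE 0.168, adjusted p = 0.521). Trib3, a pseudokinase induced by ATF4, had 5.42, 4.49 and 7.16 FPKM in controls and 2.35, 1.07 and 4.20 with leucine (−1.21, adjusted p = 0.438). Asns, the asparagine synthetase, had 1.45, 2.74 and 0.579 FPKM in controls and 0.409, 0.400 and 1.53 with leucine (−1.09, adjusted p = 0.626). The highest Asns value of the controls came from replicate 2, and the groups overlapped.

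Of 21 tested amino acid transporters 12 were higher and 9 lower, with a median of 0.21, which was 0.07 without leucine replicate 3. Slc38a2, a sodium-coupled neutral amino acid transporter induced by amino acid shortage, was the clearest. It had 21.6, 21.2 and 20.0 FPKM in controls, 24.9, 18.0 and 19.8 in early weaned livers and 13.8, 8.71 and 11 with leucine. The leucine livers lay below all 6 others (−0.96 against control, SE 0.175, adjusted p = 0.237, and −0.74 against early weaned, adjusted p = 0.0903).

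Genes that degrade amino acids and dispose of nitrogen were mostly higher. Of 29 tested genes of amino acid degradation 23 were higher. Livers did not overlap for 11 (37.9%), all higher, against 16.3% of all genes. The median change was 0.23. It ran from 0.18 to 0.26 as each control and leucine library was left out. Oat, the ornithine aminotransferase, had 32.8, 30.9 and 36.4 FPKM in controls and 72.8, 98.9 and 50.2 with leucine (1.09, SE 0.231, adjusted p = 0.285). Gls2, the liver glutaminase, had 48.0, 37.8 and 54.1 FPKM in controls and 81.8, 82.1 and 61.3 with leucine (0.63, adjusted p = 0.369). Both separated the groups without overlap.

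Sds, serine dehydratase, an enzyme that turns serine to pyruvate and ammonia, separated all 3 groups. It had 25.9, 33.6 and 52.3 FPKM in controls, 1.43, 1.61 and 0.937 in early weaned livers and 92.7, 75.5 and 60.5 with leucine. No pair of groups overlapped. Leucine livers were above control by 0.97 (SE 0.3), which did not pass (adjusted p = 0.369), and above early weaned livers by 5.98, which did (adjusted p = 0.000478). Early weaned livers were below control (−5.01, adjusted p = 0.00141).

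All 10 urea cycle genes were tested and 7 were higher, with a median of 0.12. Control and leucine livers did not overlap for 5 (50%), all higher, against 16.3% of all genes. The median was 0.20 without control replicate 2 and 0.05 without control replicate 3. Cps1, the first enzyme, had 313, 305 and 279 FPKM in controls and 434, 572 and 393 with leucine (0.58, adjusted p = 0.5). Ass1, which joins citrulline and aspartate, had 436, 498 and 513 FPKM in controls and 789.5, 989.6 and 648 with leucine (0.69, SE 0.164, adjusted p = 0.328). Arg1, which releases urea, had 597, 554 and 657 FPKM in controls and 820.1, 979 and 708 with leucine (0.42, adjusted p = 0.438).

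Most genes of the heat shock list, which holds cytosolic and mitochondrial chaperones and their regulators, were lower with leucine. Of 16 tested genes 14 were lower. Livers did not overlap for 6 (37.5%), all lower, against 16.3% of all genes. The median change was −0.42. It was −0.55 without control replicate 1 and −0.19 without control replicate 3. Hspa8, the constitutive Hsp70, had 110.5, 146 and 139 FPKM in controls and 58.4, 72.3 and 66.1 with leucine (−1.07, SE 0.162, adjusted p = 0.163). Hsph1, its exchange factor, had 13.9, 18.5 and 13.3 FPKM in controls and 6.94, 10.3 and 6.67 with leucine (−0.998, SE 0.231, adjusted p = 0.328). Early weaned livers without leucine lay between or overlapped the leucine livers for both genes. Dnajb1, an Hsp40 partner of Hsp70, had 20.1, 19.3 and 22.0 FPKM in controls, 26.5, 15.3 and 23.5 in early weaned livers and 12.2, 12.5 and 13.3 with leucine (−0.75 against control, SE 0.16, adjusted p = 0.285). Hsp90aa1, an Hsp90, had 23.5, 32.1 and 30.8 FPKM in controls and 14.5, 16.6 and 19.1 with leucine (−0.84, adjusted p = 0.309). In these 4 genes every leucine liver lay below every control. The list of endoplasmic reticulum chaperones, which have their own stress response, had a median of 0.04 over 22 genes (−0.10 without leucine replicate 2, 0.20 without control replicate 2), and none had an unadjusted p under 0.05 by edgeR.

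Promoter windows are shown for Hspa8 and Hsph1, 2 of those chaperone genes, and for Acly and Pnpla3, 2 of the lipid genes, because most members of their lists lay on 1 side of 0. Each is 250 bases up to the start of the gene, 5′ to 3′ on the gene's strand, from RefSeq on build GRCr8. Capitals in the first pair mark the heat shock element searched as GAA, TTC and GAA in that order with 2 bases of any kind between them, and in the second pair the CCAAT box, which is searched as CCAAT; both were searched on both strands, so a match on the other strand reads in reverse complement. The windows are Hspa8 at chr8:50080264-50080513 (plus strand), Hsph1 at chr12:10427118-10427367 (plus strand), Acly at chr10:85963632-85963881 (minus strand) and Pnpla3 at chr7:117173278-117173527 (plus strand).
Hspa8: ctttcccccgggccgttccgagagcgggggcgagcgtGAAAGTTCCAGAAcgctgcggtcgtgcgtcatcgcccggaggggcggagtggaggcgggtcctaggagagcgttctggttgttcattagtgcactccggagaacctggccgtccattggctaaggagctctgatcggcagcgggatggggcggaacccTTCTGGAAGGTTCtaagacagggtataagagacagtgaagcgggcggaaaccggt
Hsph1: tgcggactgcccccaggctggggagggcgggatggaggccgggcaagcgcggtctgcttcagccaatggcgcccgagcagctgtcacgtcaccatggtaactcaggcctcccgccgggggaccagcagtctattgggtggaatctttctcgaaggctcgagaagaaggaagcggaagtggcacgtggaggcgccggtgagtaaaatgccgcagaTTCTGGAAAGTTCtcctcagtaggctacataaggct
Acly: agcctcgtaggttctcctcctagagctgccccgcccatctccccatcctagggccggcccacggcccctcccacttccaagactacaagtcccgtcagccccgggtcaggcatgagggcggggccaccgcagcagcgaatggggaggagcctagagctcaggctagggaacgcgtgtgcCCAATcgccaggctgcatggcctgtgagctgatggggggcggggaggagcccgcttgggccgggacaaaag
Pnpla3: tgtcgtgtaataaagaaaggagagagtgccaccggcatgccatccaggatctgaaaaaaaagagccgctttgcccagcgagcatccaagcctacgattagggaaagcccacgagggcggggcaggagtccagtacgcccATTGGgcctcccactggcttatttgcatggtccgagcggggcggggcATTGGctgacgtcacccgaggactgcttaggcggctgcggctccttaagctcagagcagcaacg

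Hspa8 held 2 matches to the heat shock element, 43 and 201 bases from the start, and Hsph1 held 1 at 24 bases. The element was present in 4 of 12 heat shock genes with a window (33.3%; Hspa8, Hspd1, Hspe1 and Hsph1) and in 0.663% of 27457 genes. Acly held 1 CCAAT box at 67 bases and Pnpla3 held 2, at 60 and 107 bases. The CCAAT box was present in 12 of 15 cholesterol synthesis genes (80%), 10 of 15 fatty acid synthesis genes (66.7%) and 17 of 23 amino acid degradation genes (73.9%), against 36.1% of all genes. In the other lists searched it was present in 25% (mitochondrial beta-oxidation) to 56.2% (circadian clock). For every motif the list members were limited to genes tested in these livers. The share of all genes covers the 27457 genes with a window, tested or not, so the 2 shares are not like for like. The sterol regulatory element TCACNCCAC was found in 0 of 15 genes of either synthesis list and in 1.09% of all genes. A PPAR element, written as AGGTCA, 1 base of any kind and AGGTCA again, was found in 0 of 18 PPARα targets and in 0.0583% of all genes; with any base at the fourth place of each copy, it was found in 1 (5.56%, Fabp1) and in 0.379%. No match says only that these letters are not in these windows. In all 13 motifs were searched over 8 lists, and a match is a description of the sequence, not evidence of binding.

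**Figure D5:**
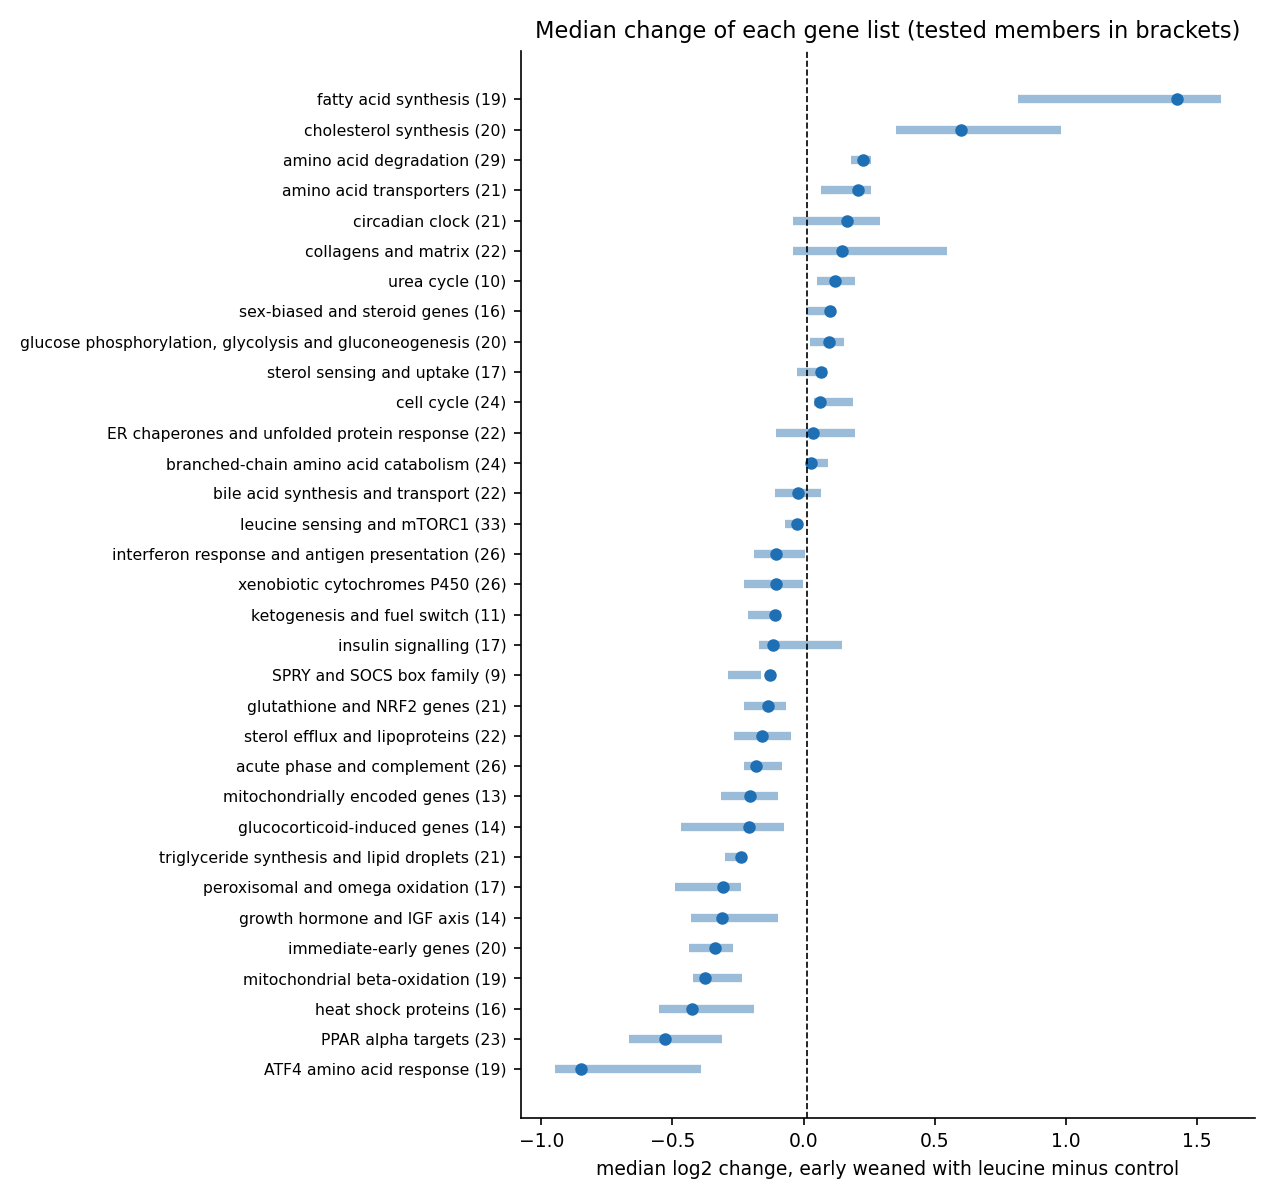
Median log2 change of each gene list other than the cell type marker lists, early weaned with leucine minus control. Dots are medians over the tested members (number in brackets). Bars are the range as each control or leucine library is left out, and the dashed line is the median of all 15019 genes. Fatty acid synthesis lies highest at 1.42 and the ATF4 list lowest at −0.85, and most other lists lie within 0.5 of 0. The bar of the ATF4 list reaches −0.39.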

How the data were processed

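Per the file headers, the authors deposited counts and FPKM for each gene in each library. The deposited counts are whole estimated counts without normalization. Of those from 1 to 24, 37% are multiples of 4 and most are not. For the floor, 1 fragment was assumed to be 4 count units and 3 fragments 12, which these shares do not establish. The authors' FPKM is scaled to transcript length and library depth, and it was set to 0 here wherever the count was 0. Which aligner and counter were run is not given in the sources used here. Per the submitters' processing notes the builds were GRCm38 and mm10, which are mouse builds, while the table holds rat identifiers and coordinates. Reads of overlapping genes and of gene copies could not be separated.

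Counts of the 9 livers at d211 were fitted with edgeR 4.0.16 in R 4.3.3 (TMM, filterByExpr with a minimum count of 10, quasi-likelihood, two-sided, contrast leucine minus control), and p-values were adjusted over all 15019 tested genes. DESeq2 1.42.0 and limma 3.58.1 (log2 of FPKM plus 1 or 0.1), other normalizations, filters and left-out libraries were alternatives. The biological coefficient of variation was 0.379. The fit was tested on simulated data. The members, the 43 gene lists and the tests were chosen with earlier results of these data known. Of 765 list symbols 730 matched the table and 696 were tested. Named genes were the called genes, the 10 of smallest p in each direction without overlap and an FPKM of 1, the 3 of smallest p in each list, and a fixed panel. Acly, Acss2, Alb, Cpt2, Elovl6, Hsph1, Me1, Trib3, Vnn1, LOC100360087, LOC100911548 and the pseudogene entry of AC128792 were named after their values were seen. The Wistar table was not used here, and some members are not reported here.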

Additional observations from a re-analysis of the deposited data

How the results depend on the processing

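The 2 calls became 4 with only the leucine and control libraries, 5 with no filter on low counts, 5 by limma on log2(FPKM + 1), 4 by limma without the filter and 200 by DESeq2. The count ran from 2 to 6 as each of the 9 libraries was left out, 6 without leucine replicate 2 or 3 and 2 without control replicate 3. With Spsb2 summed with LOC100911548, added after the data were seen, it was 1. It stayed at 2 with RLE factors, library totals, a minimum count of 50, a pseudocount of 0.1 or mitochondrially encoded genes left out. Spsb2 and AC128792 were among the calls in all 20 planned settings. With the replicate number as a block 5 genes were called. Same-numbered control and leucine libraries had correlations of their deviations of 0.00695, 0.0169 and 0.122, so the numbers were not taken as pairs. Some named genes changed sign, Cyp7a1 and Cel among them with main values of 0.83 and 0.64, and the cause was not tested. Cela1 was −0.00065 with no filter and −0.00118 without mitochondrially encoded genes. As each library was left out, the log2 change ran from −0.161 to 0.172 for Cela1, −0.382 to 0.563 for Dbp, −0.451 to 0.0729 for Slc7a5, −0.0453 to 0.291 for Hlf, −0.344 to 0.167 for Spsb1, −0.0766 to 0.881 for Cpb1, −0.573 to 0.0816 for Bcat2, −0.25 to 0.363 for Ppara, −0.553 to 1.30 for Cyp7a1 and −0.149 to 1.21 for Cel. With 3 livers per group and this spread, moderate differences were not detectable by the adjusted test; depth was high for most genes, while Clock, Scrn1 and Epha3 lay near or under 1 FPKM in at least 1 group.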

Other observations

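Clock outputs stood near control with leucine while Clock itself did not. Hlf, a clock-controlled transcription factor, had 10.7, 6.01 and 8.74 FPKM in controls, 1.92, 2.15 and 2.27 in early weaned livers and 10.2, 8.62 and 9.77 with leucine (0.13 against control, adjusted p = 0.879). Dbp, another such factor, had 72.6, 68.6 and 139 FPKM in controls and 81.5, 67.8 and 175 with leucine (0.16, SE 0.904, adjusted p = 0.969). Both overlapped control, and the interval around Dbp was wide. Cry2, a repressor of the clock, had 6.50, 6.77 and 8.91 FPKM in controls, 3.77, 4.08 and 5.61 in early weaned livers and 11.2, 11.5 and 13.3 with leucine. It lay above control by 0.64 (adjusted p = 0.367) and above early weaned livers by 1.58 (adjusted p = 0.0189). Of 21 tested clock genes 15 were higher than control (median 0.16, from −0.04 without leucine replicate 3 to 0.29 without control replicate 1). The labels give no time of day.

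Of 20 tested immediate-early genes 16 were lower than control with leucine (median −0.34), and 2 (10%, below the 16.3% of all genes) did not overlap, 1 higher and 1 lower. Jund, a subunit of the AP-1 factor, had 41.7, 31.8 and 48.6 FPKM in controls, 97.4, 72.1 and 123 in early weaned livers and 22.6, 18.5 and 21.1 with leucine. All 3 groups of Jund were apart (−1.02 against control, SE 0.191, adjusted p = 0.237). Cdkn1a, the p21 inhibitor of the cell cycle, had 39.8, 22.0 and 12.3 FPKM in controls and 10.3, 4.75 and 6.44 with leucine (−1.83, adjusted p = 0.328), while the 24 tested cell cycle genes were split, 12 higher and 12 lower (median 0.06, and 0.19 without control replicate 3). Stat2, a factor of the interferon response, had 23.4, 16.2 and 19.8 FPKM in controls and 29.3, 39.9 and 32.6 with leucine (0.73, SE 0.15, adjusted p = 0.282), while Isg15, an interferon-induced ubiquitin-like protein, had 6.74, 7.81 and 6.89 FPKM in controls and 4.48, 4.75 and 3.05 with leucine (−0.86, SE 0.2, adjusted p = 0.328). These 2 interferon genes thus lay on opposite sides of control, each without overlap. Sult2a1, a sulfotransferase of steroids and bile acids, had 145, 239 and 178 FPKM in controls, 18.6, 51.4 and 24.4 in early weaned livers and 105, 91.9 and 94.6 with leucine (−1.01 against control, adjusted p = 0.422). Of 26 tested acute phase and complement genes 20 were lower, with a median of −0.18, which was −0.08 without control replicate 2. Control and leucine livers did not overlap for 8 (30.8%), 7 of them lower, against 16.3% of all genes. Hbb, a haemoglobin chain, had 176, 466 and 328 FPKM in controls and 1109, 784 and 478 with leucine (1.22, SE 0.441, adjusted p = 0.419), beside the higher red blood cell marker sum.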
